A study of Mus musculus with 24 samples.

Results

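Rere, Katnal1 and Igsf8 are 3 of the 22350 protein-coding genes on mouse chromosomes 1 to 19 and X in the gene models used, and they were chosen by measured peak ranks, as genes that carry high-ranking Rev-erbα sites without belonging to the circadian clock. Every adipose and brain peak and every liver border from 20 kb upstream to 20 kb downstream of each gene body was taken, which gave 9 of 9016 adipose peaks, 10 of 10687 brain peaks and 204 of 245360 liver borders. Because the peak ranks of these lists chose the genes, the ranks, scores and counts of sites below are a description and were not tested. None of the 3 is among the 23 core clock genes listed here. The distance to the nearest of those on the same chromosome was taken from the centre of each gene's best-ranked adipose peak. It was 420.0 kb for Rere (Per3), 73073.1 kb for Katnal1 (Clock) and 80884.5 kb for Igsf8 (Per2). A high rank in both tissues held for Katnal1 and Igsf8, whereas the brain peak of Rere held rank 387.

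The study mapped where Rev-erbα and partner proteins bind chromatin in mouse tissues, in 24 samples of 16 groups, of which 3 groups were used here. All 3 were wild-type mice (C57BL/6J by genotype, C57BL/6 by strain) sampled at zeitgeber time 10, that is 10 h after lights on, and all used the same Rev-erbα antibody. Epididymal white adipose tissue (eWAT, 2 libraries) and brain, taken from the ventral tegmental area (1 library), were assayed by ChIP-seq, which gives peaks of immunoprecipitated DNA. Liver (2 libraries) was assayed by ChIP-exo, in which exonucleases trim the precipitated DNA towards the bound protein, so that each strand gives a border at base resolution.

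Each group is represented by 1 deposited list, so no spread between replicates was known, and no value has an SD. The read depth was unknown as well. Peak scores ran from 10.1 to 281.6 in eWAT (median 14.2) and from 14.5 to 516.3 in brain (median 25.5), and liver border signals from 0.0602 to 343.344 (median 0.4711). Scores and signals are the authors' own values and were compared only within a list. The lists hold no expression values, so tissue markers were not checked. In whole tissue, binding in fewer cells and weaker binding in each cell cannot be told apart.

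Rev-erbα, encoded by Nr1d1, is a heme-binding nuclear receptor that represses transcription by recruiting the NCoR corepressor with the histone deacetylase HDAC3. It binds DNA directly at an AGGTCA core preceded by an AT-rich stretch (the site called RORE, which it shares with the ROR receptors) or at a direct repeat of this core, and it can also be brought to chromatin by other DNA-bound factors. Within the clock it represses Arntl and is itself driven through E-boxes, bound by CLOCK and BMAL1, and D-boxes, bound by the activators DBP, TEF and HLF and by the repressor NFIL3. Rere encodes an atrophin-family corepressor of nuclear receptors. Katnal1 encodes a katanin-like ATPase that severs microtubules. Igsf8 encodes a cell-surface immunoglobulin superfamily protein of the EWI family that associates with the tetraspanins CD9 and CD81.

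The sequences below are the 3 lead sites, each the 150 bp eWAT peak with the best rank at its gene, and they are shown because the liver borders and the motifs described later are read from them. They are given on the plus strand of mm9, and capitals mark the bases from the plus-strand to the minus-strand liver border. The Rere site is chr4:149957670-149957819, the Katnal1 site chr5:149806812-149806961 and the Igsf8 site chr1:174240286-174240435.
Rere lead site: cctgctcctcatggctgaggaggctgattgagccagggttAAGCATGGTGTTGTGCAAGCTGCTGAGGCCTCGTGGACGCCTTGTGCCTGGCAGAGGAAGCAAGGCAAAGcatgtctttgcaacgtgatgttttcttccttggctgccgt
Katnal1 lead site: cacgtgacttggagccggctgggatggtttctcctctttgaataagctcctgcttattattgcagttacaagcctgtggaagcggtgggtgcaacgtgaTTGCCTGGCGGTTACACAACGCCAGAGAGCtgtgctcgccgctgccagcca
Igsf8 lead site: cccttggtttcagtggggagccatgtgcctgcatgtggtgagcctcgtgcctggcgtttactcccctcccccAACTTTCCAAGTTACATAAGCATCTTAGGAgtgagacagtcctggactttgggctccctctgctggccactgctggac

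Each gene carried exactly 1 site shared between eWAT and brain, and that site was the strongest of its window in both tissues. Shared sites, with peaks that overlap by at least 1 bp, lay in the windows of 3.88% of all protein-coding genes, while eWAT peaks lay in the windows of 28.7% and brain peaks in those of 41.5%. Of all peaks, 7.83% in eWAT and 6.61% in brain were shared, so the 3 sites came from a minority of each list. Among the first 20 peaks, however, 19 in eWAT and 18 in brain were shared. Each lead site also had liver borders at no more than 100 bp from its centre. Of all peaks, 30.0% in eWAT and 36.4% in brain had such a border. Among the first 20 peaks, 20 in eWAT and 20 in brain had one, so it does not set the lead sites apart from peaks of like rank.

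**Figure D1:**
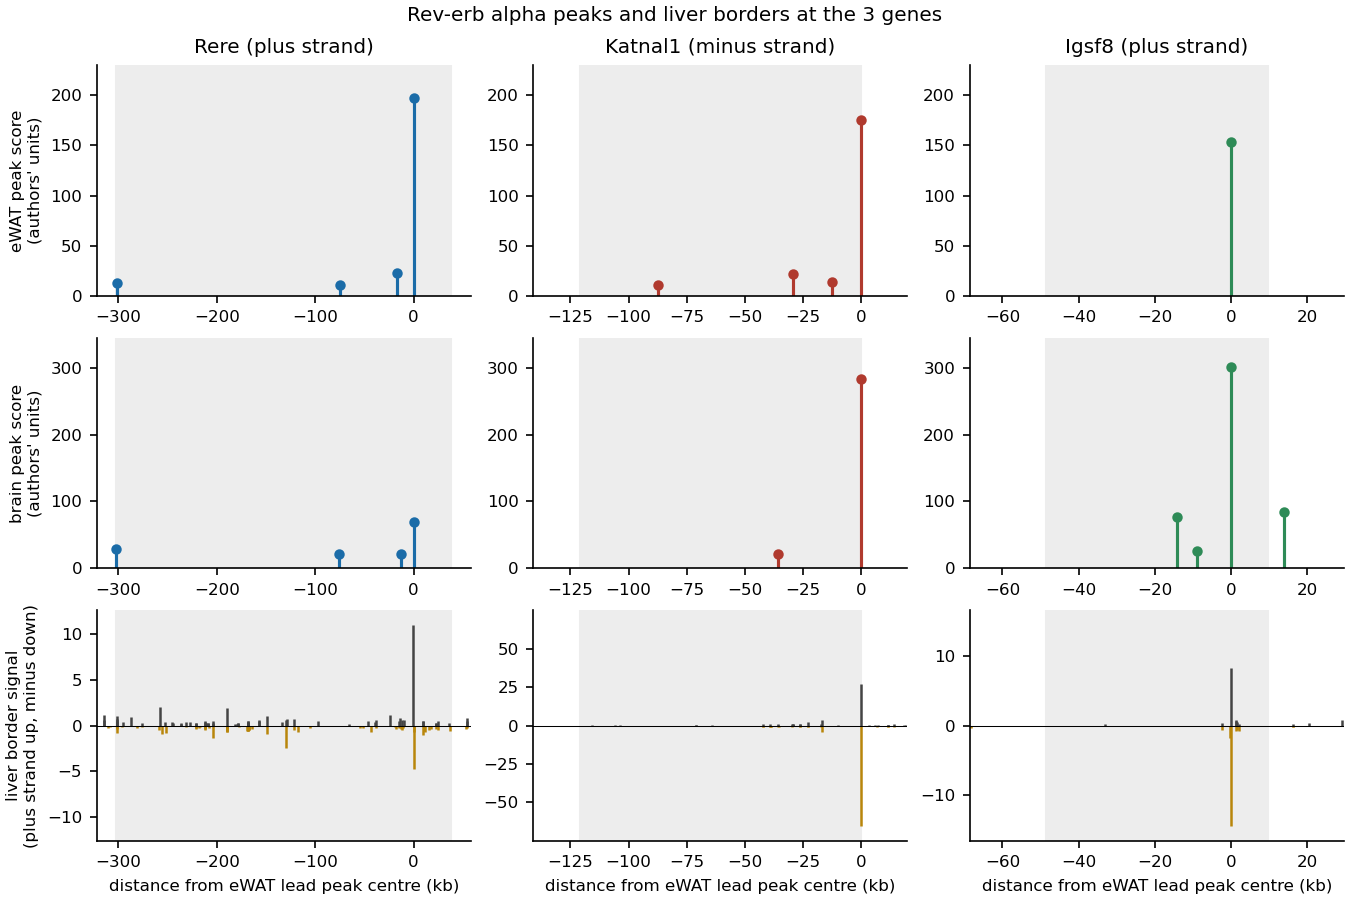
Peak scores in eWAT (upper panels) and brain (middle panels), in the authors' units, and liver border signal (lower panels, plus strand up and minus strand down), against the distance in kb from the centre of the eWAT lead peak, with the gene body shaded. At each gene the tallest mark stands at distance 0 in all 3 lists, with eWAT scores of 197.6 (Rere), 175.3 (Katnal1) and 153.0 (Igsf8).

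The lead site of Rere was the strongest of the 3 in eWAT and the weakest in brain. Rere (ENSMUSG00000039852.9, chr4:149655755-149996075, plus strand) spans 340.3 kb, and the site lies in an intron of its coding transcripts, 13979 bp downstream of the nearest annotated start, that of a noncoding Rere transcript within the gene. The eWAT score was 197.6, rank 10, in the top 0.111% of the list. The brain peak (chr4:149957639-149957788) scored 69.1, rank 387, in the top 3.62%, and its centre lay 31 bp from that of the eWAT peak, with 119 bp in common. Set against the median of its list, the score was 13.9-fold in eWAT and 2.7-fold in brain.

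Katnal1 carried the only promoter site among the 3. Katnal1 (ENSMUSG00000041298.9, chr5:149685908-149806799, minus strand) spans 120.9 kb, and the centre of its lead site lies 88 bp upstream of its annotated start, inside an intron of the noncoding processed transcript Gm15406. The eWAT score was 175.3 (rank 15, top 0.166%) and the brain score 283.6 (rank 13, top 0.122%). The brain peak (chr5:149806810-149806959) was centred 2 bp from the eWAT peak, and 148 bp were common to both. These scores were 12.3-fold the list median in eWAT and 11.1-fold in brain.

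Igsf8 ranked highest in brain. Igsf8 (ENSMUSG00000038034.9, chr1:174191772-174249972, plus strand) spans 58.2 kb, and its lead site lies in an intron of the longest transcript, 1541 bp upstream of the nearest start of the shorter coding transcripts. The eWAT score was 153.0 (rank 18, top 0.2%) and the brain score 301.8 (rank 12, top 0.112%), with centres 37 bp apart and 113 bp in common. The brain peak is chr1:174240249-174240398. Its scores were 10.8-fold the list median in eWAT and 11.8-fold in brain.

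The order of the genes therefore differed between the lists. In eWAT it was Rere, Katnal1, Igsf8, and the highest score was 1.29-fold the lowest. In brain it was Igsf8, Katnal1, Rere, where Igsf8 was 1.06-fold Katnal1 and 4.37-fold Rere. In liver the best border signal was highest at Katnal1 (65.18), then Igsf8 (14.38) and Rere (10.95), and Katnal1 was 4.53-fold Igsf8 and 5.95-fold Rere. With 1 list per tissue, it cannot be told which neighbours in these orders differ beyond the spread between animals. The peaks just above and below show how closely the lists are spaced. Around the Rere eWAT peak stood scores of 204.6 (rank 9) and 190.5 (rank 11), and around the Igsf8 eWAT peak 161.1 (rank 17) and 152.0 (rank 19). Around the Katnal1 eWAT peak stood 181.3 (rank 13) and 169.2 (rank 16), and the brain peaks of Igsf8 and Katnal1 were next to each other, between 320.0 (rank 11) and 272.7 (rank 14).

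**Figure D2:**
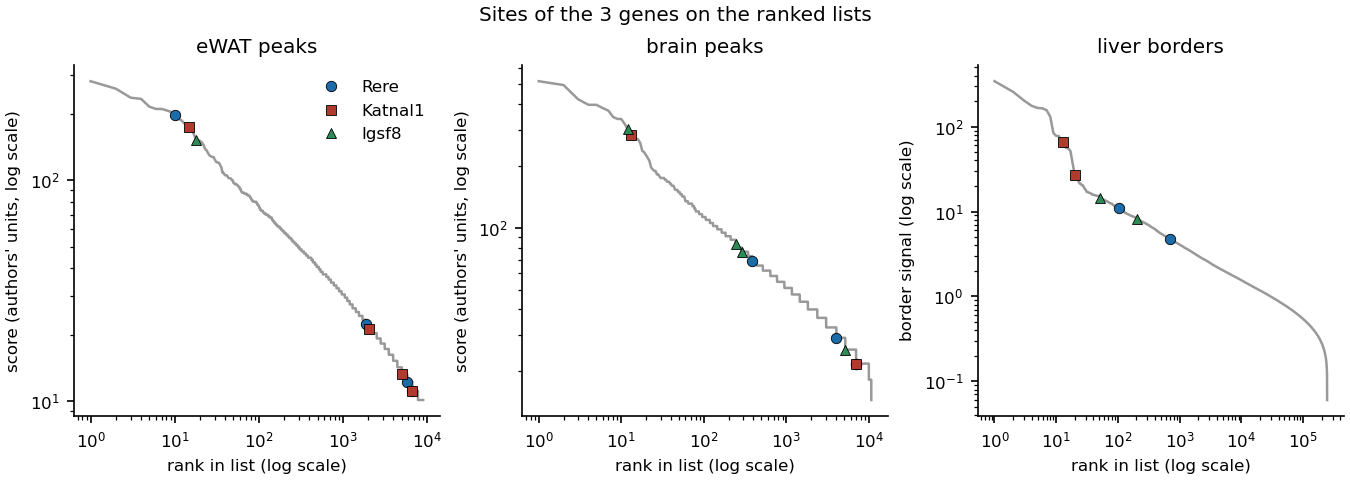
Score or signal against rank, both on log scales, for all eWAT peaks, brain peaks and liver borders (grey lines), with every peak in the 3 windows and the 2 borders of each lead site marked by gene. The lead sites stand at ranks 10, 15 and 18 in eWAT, while in brain Katnal1 (13) and Igsf8 (12) are separated from Rere (387).

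In liver, each lead site held exactly 2 borders within 100 bp of its eWAT centre, a plus-strand border followed by a minus-strand border. Such a pair was found at 14.3% of eWAT peaks, and at 14 of the first 20. The p-values given with the borders are the authors' own. At Katnal1 the plus border (position 149806911) had a signal of 26.81 (rank 20, deposited p-value 0.0124), and the minus border (149806940) had 65.18 (rank 13, deposited p-value 0.0094). At Igsf8 the plus border (174240358) had 8.27 (rank 205, deposited p-value 0.0131), and the minus border (174240387) had 14.38 (rank 52, deposited p-value 0.0085). At Rere the plus border (149957710) had 10.95 (rank 104, deposited p-value 0.0101), and the minus border (149957779) had 4.72 (rank 698, deposited p-value 0.0371).

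The geometry of the pairs was alike at Katnal1 and Igsf8 and different at Rere. At Katnal1 and Igsf8 the borders lay 29 bp apart, and the minus border was the stronger, 2.43-fold and 1.74-fold the plus border. At Rere they lay 69 bp apart, and the plus border was the stronger, 2.32-fold the minus border. The midpoint of the pair was 0.5 bp from the eWAT peak centre at Rere, 11.5 bp at Igsf8 and 38.5 bp at Katnal1. Of the 48809 pairs of the whole list, each a plus border with the first minus border found downstream of it within 200 bp, 4.33% were 28 to 30 bp apart. At eWAT peaks only the pair of largest summed signal within 100 bp of each centre was counted, so the 2 sets are unlike. Among those 1291 pairs the share was 9.06%, and 2.4% were 68 to 70 bp apart, the spacing of Rere.

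The lead pair stood out from the remaining borders of each window. Borders among the first 1000 of the list lay in the windows of 3.4% of protein-coding genes, and they numbered 2 at Rere, 3 at Katnal1 and 2 at Igsf8. The lead pair made up 20.5% of the summed signal of the 122 borders at Rere, 66.4% of that of the 63 at Katnal1 and 70.3% of that of the 19 at Igsf8. The remaining borders had median signals of 0.425, 0.639 and 0.566 in the same order, beside a list median of 0.4711. They were thus below it at Rere and above it at Katnal1 and Igsf8. The strongest of them reached 2.41, 4.408 and 1.763. Strands were balanced, with 61 plus and 61 minus borders at Rere, 31 and 32 at Katnal1 and 10 and 9 at Igsf8.

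**Figure D3:**
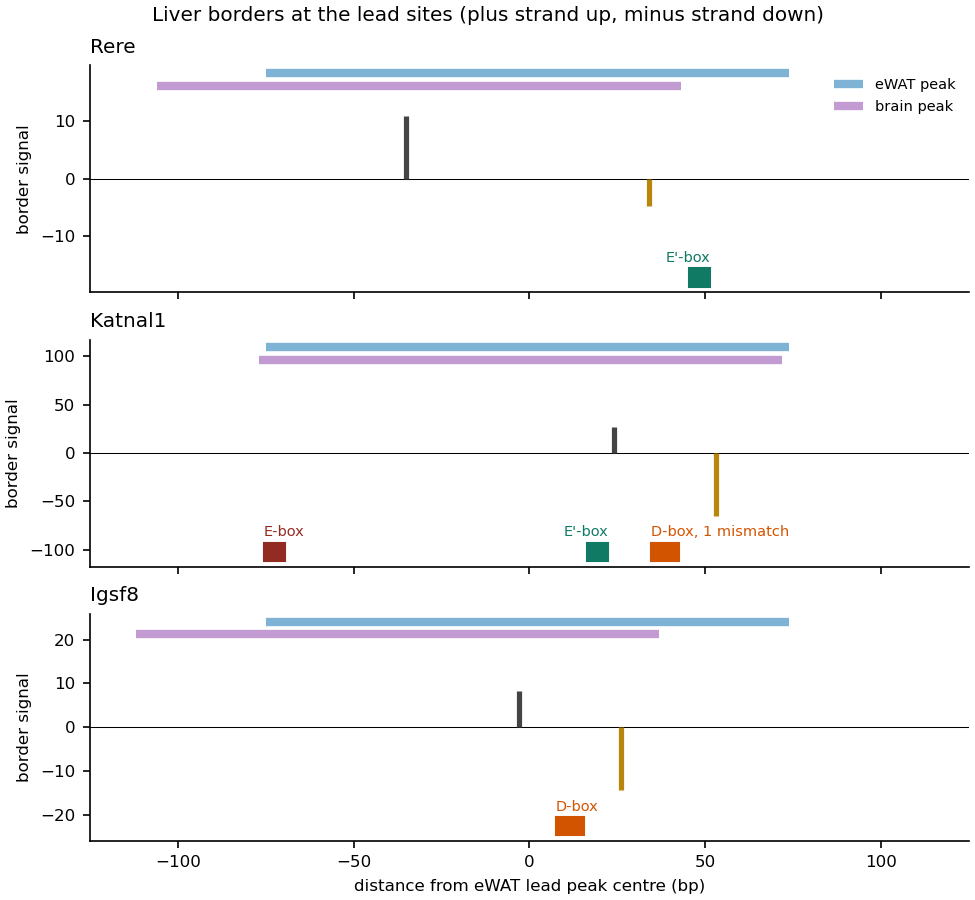
Liver border signal (plus strand up, minus strand down) against the distance in bp from the eWAT lead peak centre, with the eWAT and brain peaks as horizontal bars and motif matches as blocks. The borders are 29 bp apart at Katnal1 and Igsf8, with a D-box or its variant with 1 mismatch between them, and 69 bp apart at Rere.

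None of the 3 lead sites held a Rev-erbα response element. The search covered both strands of the 150 bp eWAT and brain peaks for the direct repeat RevDR2 (AGGTCANNAGGTCA), the direct repeat DR1 (AGGTCANAGGTCA), the core hexamer AGGTCA and the RORE. The hexamer is part of both repeats and overlaps the RORE. Among all eWAT peaks the exact shares were 0.189% for RevDR2, 0.0665% for DR1, 19.0% for AGGTCA and 3.46% for the RORE. In the first 100 eWAT peaks they were 2% for RevDR2, 21% for AGGTCA and 7% for the RORE, so most strong eWAT peaks likewise lacked an exact match. Among all brain peaks the exact shares were 11.7% for AGGTCA and 2.16% for the RORE. In the first 105 brain peaks they were 18.1% and 7.62%. Allowing 1 mismatch in the repeats and the RORE gave no match in the lead sites either. No match says only that these letters are not in these windows. Extending the search to 100 bp on each side found 1 match, an AGGTCA on the minus strand at chr5:149806803-149806808, 84 bp from the centre of the Katnal1 site and outside the peak.

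The lead sites did hold letters of other clock-linked elements, and these differed from gene to gene. Searched on both strands, an E-box (CACGTG) was present at Katnal1 (149806812 to 149806817), at the edge of the peak and 123 bp before the minus border. E-boxes were found in 11.4% of all eWAT peaks and 59% of the first 100, and in 8.17% of all brain peaks and 34.3% of the first 105, ties included. An exact D-box (TTATGTAA or TTACGTAA) was present at Igsf8, on the minus strand at 174240369 to 174240376, and it was found in 1.87% of all eWAT peaks and 4% of the first 100, and in 1.67% of all brain peaks and 8.57% of the first 105. The E'-box CACGTT, added to the search after these sites had been seen, was present at Katnal1 (149806904 to 149806909) and Rere (149957791 to 149957796), on the minus strand at both. It was present in 4.41% of all eWAT peaks and 15% of the first 100, and in 3.56% of all brain peaks and 8.57% of the first 105. At both sites it lay outside the border pair. The brain peak of Rere ends at 149957788 and does not include it. Neither a CCAAT box (CCAAT) nor a GC box (GGGCGG) was found in a lead site. The CCAAT box was present in 20.6% of all eWAT peaks and 26% of the first 100, and in 18.9% of all brain peaks and 28.6% of the first 105. The GC box was present in 3.72% of all eWAT peaks and 26% of the first 100, and in 20.8% of all brain peaks and 33.3% of the first 105.

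**Figure D4:**
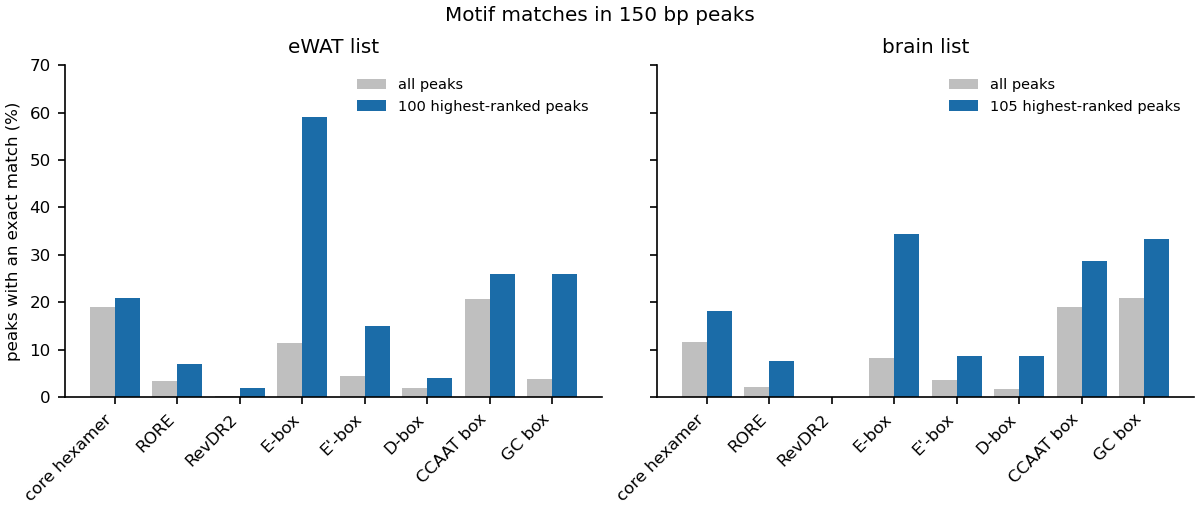
Percent of 150 bp peaks with an exact match to each motif, for all peaks (grey) and the highest-ranked peaks (blue), in eWAT and brain. The E-box rises from 11.4% of all eWAT peaks to 59% of the first 100, while the core hexamer AGGTCA differs less there, with 19.0% and 21%. In brain the hexamer is in 11.7% of all peaks and 18.1% of the first 105.

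At Igsf8 and Katnal1 a D-box or its near match stood at the middle of the liver pair. At Igsf8 the exact D-box, read as TTATGTAA on the minus strand, begins 11 bp after the plus border and ends 11 bp before the minus border. At Katnal1 the same 8 positions hold TTGTGTAA on the minus strand (149806922 to 149806929), which has 1 mismatch, and the distances to the borders are again 11 bp and 11 bp. A D-box with up to 1 mismatch is not rare, being present in 16.6% of all eWAT peaks. The search of pairs was made after the lead sites had been seen, and it includes them. In the whole liver list, 45.2% of the 956 pairs 29 bp apart held such a D-box at the middle (16.9% an exact one). The share was 5.71% at a spacing of 27 bp, 26.0% at 28 bp and 5.48% at 30 bp. Of the other 23337 pairs 8 to 60 bp apart, those 28 to 30 bp apart left out, 59 (0.253%) held it, 34 of them at 27 bp. With all spacings from 26 to 31 bp left out of that range, it was held by 17 of 21411 pairs (0.0794%). This count was added after the shares by spacing had been seen. Where both borders were among the first 2000, such a D-box was at the middle of 64 of 91 pairs 28 to 30 bp apart (70.3%). At the other spacings from 8 to 60 bp it was at the middle of 0 of 245 such pairs.

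**Figure D5:**
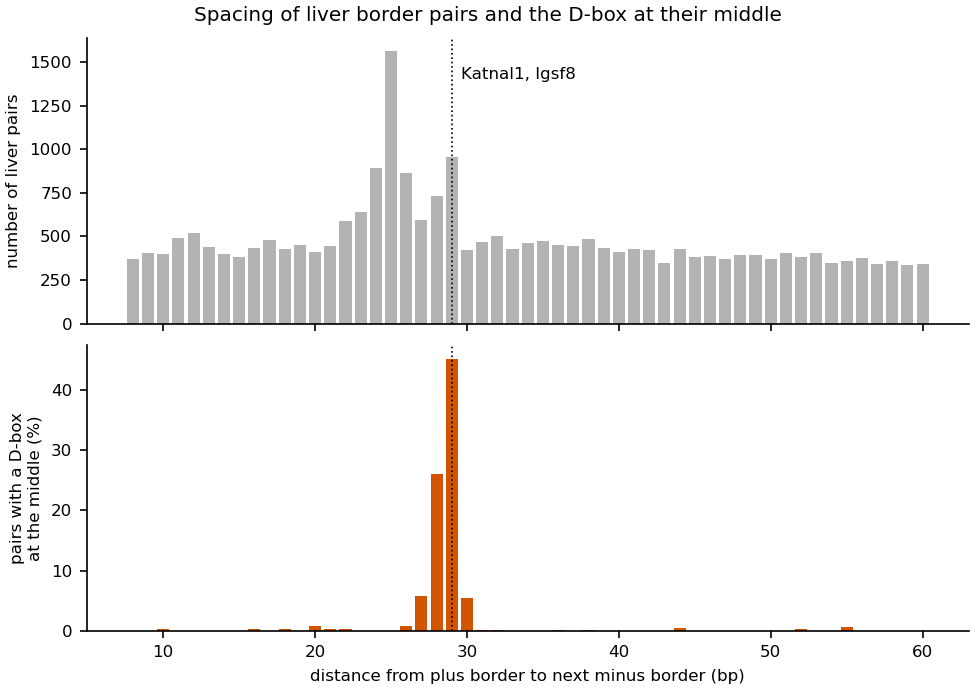
Number of liver border pairs (upper panel) and percent of them with a D-box, up to 1 mismatch, at the middle (lower panel), against the distance in bp between the plus and the minus border of the pair, with the spacing of Katnal1 and Igsf8 marked by the dotted line. The share is 45.2% at 29 bp and 26.0% at 28 bp.

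The Rere pair held no such element. The closest letters to a D-box between its borders were TTGTGCAA (149957720 to 149957727), with 2 mismatches, 10 bp after the plus border and 52 bp before the minus border. A match with 2 mismatches was present in 42.8% of the 6180 pairs 60 to 80 bp apart, so it does not set Rere apart. Rere and Katnal1 instead had in common the 11 bp string TGCAACGTGAT, which contains the E'-box read from the other strand. It occupies 149957788 to 149957798 at Rere and 149806901 to 149806911 at Katnal1, where its last base is the plus border. This comparison was also made after the sites had been seen. The string was present in 4 eWAT peaks (0.0444%), of which 3 were among the first 100, namely Rere, Katnal1 and a peak 436 bp from a start of Nup50 (rank 67, score 87.1). The fourth lay 20766 bp from St6gal1 (rank 6686, score 11.1). In brain it was present in 2 peaks, Katnal1 and a peak 801 bp from a start of Rcc2 (rank 1821). The longest strings that Igsf8 had in common with the others were 9 bp, GTGCCTGGC with Rere and TGCCTGGCG with Katnal1, which were present in 0.477% and 0.0887% of eWAT peaks. At Katnal1 the latter begins 1 base after the plus border, and at Igsf8 it lies outside the pair.

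The other 6 eWAT peaks and 7 brain peaks of the windows were mostly weak and were not shared. At Rere, eWAT peaks lay in exonic sequence of a noncoding transcript 532 bp downstream of its start (chr4:149656378-149656527, score 12.2, rank 5848, 2 borders) and in introns at chr4:149882574-149882723 (11.1, rank 6686) and chr4:149940506-149940655 (22.3, rank 1878), the latter with an E-box. Peaks of equal score have the same rank. The brain peaks of Rere lay 392 bp upstream of its first start (chr4:149655288-149655437, score 29.1, rank 4034, with 3 GC boxes), in an intron (chr4:149881727-149881876, 21.8) and in a noncoding exon (chr4:149944468-149944617, 21.8), both at rank 6985. Each of the 3 brain peaks had an eWAT peak in its neighbourhood that it did not overlap, at 1090, 847 and 3962 bp between centres. None of the 3 had a liver border within 100 bp.

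Katnal1 had intronic eWAT peaks at chr5:149719289-149719438 (score 11.1, rank 6686), chr5:149777402-149777551 (21.3, rank 2072) and chr5:149794144-149794293 (13.2, rank 5026). The peak of rank 2072 was the only peak of the 3 windows with an exact RORE, AAACTGGGTCA on the minus strand at 149777483 to 149777493, and it had 2 liver borders, the stronger with a signal of 0.863. The 1 further brain peak (chr5:149771213-149771362, score 21.8) lay 434 bp from a start of the coding gene Gm15409, inside the Katnal1 body, and had 2 borders. Katnal1 also had a liver pair with both borders among the first 2000 but no peak near it, at 149790217 (plus, signal 3.604, rank 1329) and 149790279 (minus, signal 4.408, rank 832). This pair lay 62 bp apart in an intron, 3971 bp from the nearest eWAT peak and 16637 bp from the nearest brain peak.

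Igsf8 differed from the others in having 1 eWAT peak against 4 brain peaks, and 2 of its brain-only peaks were strong. A peak in a Kcnj9 intron (chr1:174254116-174254265) scored 83.6, rank 243, and lay 5203 bp from a start of Kcnj9, which encodes an inwardly rectifying potassium channel subunit used by neurons. A peak in an Igsf8 intron scored 76.4, rank 290, and held none of the motifs searched. The remaining peak (chr1:174231301-174231450) scored 25.5, rank 5169, and held an E-box. None of the 3 had a liver border within 100 bp or an eWAT peak in the window other than the lead site, 13830, 14214 and 8985 bp away in the order given. Since Kcnj9 lies in the same window, these sites cannot be assigned to Igsf8 from position alone. The peak of rank 243 is shown because it held 2 exact D-boxes and an E'-box without any liver border. It is given on the plus strand of mm9, with these matches in capitals.
Igsf8 brain-only site: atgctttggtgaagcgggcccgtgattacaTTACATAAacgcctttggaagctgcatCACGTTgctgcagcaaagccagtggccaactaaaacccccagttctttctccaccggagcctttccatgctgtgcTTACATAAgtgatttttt

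Per Mb of window, borders stayed below the 90th percentile of protein-coding genes at all 3 loci. Borders numbered 320.8 per Mb at Rere, 391.6 at Katnal1 and 193.5 at Igsf8, where the median window of a protein-coding gene had 135.5 and that percentile was 479.0. Peaks numbered 10.52, 24.86 and 10.18 per Mb in eWAT and 10.52, 12.43 and 40.73 per Mb in brain, beside 90th percentiles of 21.1 and 31.9. Only the eWAT density of Katnal1 and the brain density of Igsf8 lay above those percentiles. Each rests on 4 peaks, 1 of them the lead peak by whose rank the gene was chosen. The densities were not recomputed without it, so neither is read as a trait of the gene. In all, 5 of the 9 eWAT peaks and 4 of the 10 brain peaks had a liver border within 100 bp, beside 30.0% and 36.4% of all peaks. The lead sites, chosen by rank, account for 3 of each count, and the brain count is near the share of all brain peaks.

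The genes with the most similar ranks were found by the distance between log10 ranks of the best eWAT peak, brain peak and liver border, over the 3 lists. Rere was nearest to Eif4b, Spryd3 and Tenc1 (distance 0.66), neighbours on chromosome 15 that have 1 site in common, at rank 28 in eWAT, 946 in brain and 200 among borders. Katnal1 was nearest to 5 genes tied at 0.57, of which Aph1a, BC028528 and C920021L13Rik come first by name, with ranks of 9, 9 and 41 in the same order of lists. Their best eWAT peak lies in the window of the clock gene Ciart. Igsf8 was nearest to Zc3h7b (0.27), whose eWAT site at rank 23 lies in the window of the clock gene Tef, and then to 5 tied genes (0.34), of which Aph1a and BC028528 come first by name. The best eWAT peak of the genes nearest to Rere lies in no clock gene window. The genes compared, with values in all 3 lists, numbered 3878 for Rere and Katnal1 and 3876 for Igsf8.

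The windows of genes related to the 3 by function were counted in the same way. Of 12 atrophin partners and nuclear receptor corepressor genes, eWAT peaks lay in the windows of 5 and brain peaks in those of 8, 2 had a shared site and 0 had a border among the first 1000. The best of them was Nr2f2, which encodes the orphan receptor COUP-TFII (eWAT score 48.6, rank 307; brain score 109.1, rank 106). Mta1, a NuRD subunit, had ranks 676 and 519, and Atn1, the other mammalian atrophin, had a brain peak of rank 260 and no eWAT peak. Of 11 matched katanin and microtubule severing genes, 4 had an eWAT peak, 4 a brain peak and 0 a shared site. Katna1, the catalytic katanin subunit, had an eWAT peak of rank 519 and no brain peak. Of 12 genes for EWI proteins, tetraspanins and their partners, 4 had an eWAT peak, 7 a brain peak, 2 a shared site and 2 a border among the first 1000, beside 3.88% and 3.4% of all protein-coding genes for the last pair of counts. The shared site and the border were those of Cd151 and Tspan4, neighbouring tetraspanin genes with 1 site in common, so that both counts come from a single locus (eWAT score 129.7, rank 26; brain score 54.5, rank 771; border signal 4.27, rank 891). Cd81, whose product binds the Igsf8 protein, had a brain peak of rank 344 and no eWAT peak, and Cd9, Ptgfrn and Igsf3 had neither. The counts of genes with a peak stand beside 28.7% of all protein-coding genes in eWAT and 41.5% in brain, and with lists this short no difference is read from them.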

How the data were processed

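Only deposited lists were used, 1 per group; the other 19 samples were not analysed here. Per the submitters' processing notes, the build was mm9, with Bowtie 0.12.8 for ChIP-seq, Bowtie 1.1.1 for ChIP-exo and HOMER without a version; for caller settings, thresholds, input use and pooling of libraries, the sources used here give nothing. The deposited peak score has no stated unit. All scores lie within 0.06 of a whole multiple of 1.013 (eWAT) or 3.636 (brain), and what a multiple stands for is not stated. The median peak stood at 14 multiples in eWAT and 7 in brain, and the lowest at 10 and 4. The brain lead peaks stood at 19 (Rere), 78 (Katnal1) and 83 (Igsf8). The brain-only peaks of rank 290 and 243 at Igsf8 stood at 21 and 23. Per the file headers, each border has a signal (scale not stated) and a p-value, listed up to 0.05. A stricter list would hold fewer sites.

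Positions, within mm9 lengths for all features, were joined to NCBIM37 and GENCODE vM1 in Python 3.11.15 (pandas 2.3.3, numpy 2.4.6, pysam 0.24.0); plots used matplotlib 3.10.9. Peaks were ranked by score and borders by signal. Searches were tested on simulated positions and sequences. No test between groups was possible. Named genes are the 3 members, overlapping genes, the 3 genes nearest in rank, and 3 lists of 12 related genes (Fignl2 had no match); Nup50, St6gal1 and Rcc2 were added after their values were seen. Some results under this rule are not reported here. Members and lists were chosen with earlier results of these data known.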

Additional observations from a re-analysis of the deposited data

How the results depend on the processing

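Over the 3 genes, 14 of 20 recomputed totals stayed within 1.5 times the reported count and 6 did not. With windows of 50 kb on each side the brain peaks rose from 10 to 17. Keeping only features above the median of their list left 5 of 9 eWAT peaks, 6 of 10 brain peaks and 108 of 204 borders. Such a cut removes a large part of any list by construction, so these 3 falls do not measure a dependence on processing. Requiring a border within 50 bp left 3 of 5 eWAT peaks with a border, and searching 100 bp on each side of the centre raised the response elements from 0 to 1. The 3 shared sites stayed at 3 under an overlap of 75 bp, centres within 500 bp and peaks above the median. For single genes, 43 of 54 values stayed within that range and 11 did not. No paired analysis was possible because each group has 1 list. The limits are those of the lists: unknown depth, no replicate values, unstated thresholds, and no input or liver ChIP-seq values. The choices of the E'-box, of D-box mismatches and of common strings were made after seeing the data.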
